A study of Mus musculus with 1047 samples.

Results

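Clec7a, Cd14, Tlr2, Tlr4, Tlr3, Tlr7, Tlr9 and Myd88 are innate immune receptors and the adaptor protein that several of them share. They were chosen by name, and these 8 genes stand among 18081 gene symbols of the aged Smart-seq2 data, where all 8 have a row. All 8 also have a row in the 5xFAD Smart-seq2 data. In the postnatal Smart-seq2 data and in both droplet data sets 7 of them do, and Clec7a was not analysed there.

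Microglia, the macrophages of the brain, were read with Smart-seq2, which sequences full-length mRNA of 1 cell per well, and the reads were summed per animal and tissue. Live CD45+ CD11b+ cells had been sorted after dissociation with actinomycin D, an inhibitor of transcription, at 45 uM. For the postnatal pool named below, however, the labels give no actinomycin D state per cell. The aged groups were white matter of mice labelled Trem2ko (297 cells, animals A8 to A13), their grey matter, which is frontal cortex (267 cells), white matter of wild-type mice (136 cells, A2 to A7) and their grey matter (147 cells, A1 to A7). Trem2 is a lipid-sensing receptor of microglia, and Trem2ko labels its knockout. Trem2ko animals were 18 months old (A11 and A12), 20 months (A8 to A10) or 28 months (A13), and A9, A10, A11 and A13 were female. Wild-type (WT) animals were 18 or 19 months old and male, except for the female A1. A second set held prefrontal cortex of 5xFAD mice at 5 or 7 months (75 cells, A91, A93, A99, A100 and A187), whose neurons express mutant human amyloid precursor protein and presenilin transgenes. Their WT controls were 6 or 7 months old (41 cells, A132 and A173). All of them were female except A187. A further set was 1 pool of 3 CX3CR1-GFP reporter mice at postnatal day 14 (75 cells). Each group but the pool holds 1 library per animal and tissue. Droplet libraries came from pooled aged males, also with actinomycin D at 45 uM, and with no sort named. They held white and grey matter of WT mice at 24 months and white matter of ApoeKO mice at 18 months. A white matter library titled WT carries the genotype ApoeKO, and its title was followed.

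Pattern recognition receptors bind structures of microbes or of damaged cells. Clec7a, also called Dectin-1, is a C-type lectin that binds fungal beta-glucan and signals through the kinase Syk, and in brain it is a widely used marker of activated microglia. CD14 carries lipopolysaccharide to the receptor Tlr4 and also assists Tlr2. Tlr2 and Tlr4 sit at the cell surface and bind bacterial lipoproteins and lipopolysaccharide, whereas Tlr3, Tlr7 and Tlr9 sense double-stranded RNA, single-stranded RNA and CpG DNA in endosomes. Myd88 is the adaptor of every one of these Toll-like receptors except Tlr3, which signals through Ticam1, and the chains end in the transcription factors NF-kB and the interferon regulatory factors.

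The promoters of the lectin, a surface receptor, an RNA sensor and the adaptor are shown because their genes differ in where they are read. Each stretch runs from 250 bases before to 50 bases after the annotated start, 5′ to 3′ on the gene's strand, from RefSeq on GRCm38.p6. Of the 8 genes, 5 had an entry. RefSeq's start lies inside the GENCODE gene for Tlr2, Tlr3 and Myd88, and for Clec7a it lies at the gene's 5′ end. Capitals mark matches of 3 motifs, each searched on both strands. A short form of the NF-kB motif is GGGA and CC with any 4 bases between them, a short form of the interferon-stimulated response element is GAAA and GAAA with any 2 bases between them, and GAGGAA is a core bound by PU.1 and other ETS factors.
Clec7a, chr6:129472730-129473029, minus strand: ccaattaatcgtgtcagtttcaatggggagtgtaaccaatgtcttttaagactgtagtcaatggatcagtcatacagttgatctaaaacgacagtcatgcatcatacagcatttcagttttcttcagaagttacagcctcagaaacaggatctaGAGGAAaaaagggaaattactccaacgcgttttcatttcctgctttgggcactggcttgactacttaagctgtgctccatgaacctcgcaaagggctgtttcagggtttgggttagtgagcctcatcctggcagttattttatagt
Tlr2, chr3:83841559-83841858, minus strand: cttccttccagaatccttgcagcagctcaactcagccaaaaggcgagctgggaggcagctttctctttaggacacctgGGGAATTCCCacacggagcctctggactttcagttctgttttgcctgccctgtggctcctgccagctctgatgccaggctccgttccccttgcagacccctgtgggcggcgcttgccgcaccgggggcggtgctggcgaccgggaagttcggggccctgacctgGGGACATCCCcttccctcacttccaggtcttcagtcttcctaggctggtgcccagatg
Tlr3, chr8:45410331-45410630, minus strand: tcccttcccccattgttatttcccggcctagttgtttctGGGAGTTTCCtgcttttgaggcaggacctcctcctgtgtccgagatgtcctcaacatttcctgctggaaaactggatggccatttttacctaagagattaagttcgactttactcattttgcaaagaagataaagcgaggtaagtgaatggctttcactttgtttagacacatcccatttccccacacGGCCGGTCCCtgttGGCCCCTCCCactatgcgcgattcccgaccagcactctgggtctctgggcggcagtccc
Myd88, chr9:119339969-119340268, minus strand: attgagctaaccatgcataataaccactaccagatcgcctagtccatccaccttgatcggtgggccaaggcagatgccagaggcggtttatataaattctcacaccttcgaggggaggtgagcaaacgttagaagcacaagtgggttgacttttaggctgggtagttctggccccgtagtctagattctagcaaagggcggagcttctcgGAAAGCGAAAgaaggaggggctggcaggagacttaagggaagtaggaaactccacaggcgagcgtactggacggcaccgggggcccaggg

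The Tlr2 stretch holds the NF-kB form beginning 172 and 8 bases before the start, each read on both strands, and the Tlr3 stretch holds it at 211, 23 and 9 bases before the start. The Myd88 stretch holds the interferon form at 40 bases, and the Clec7a stretch holds GAGGAA alone, at 96 bases. Of 27025 promoters searched the same way, 20.5% hold the NF-kB form, 3.5% the interferon form and 28.3% GAGGAA. A match describes letters and is not a measured binding site.

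Summed libraries of at least 5 cells held between 571560 and 59748018 reads, which left A13 and A187 out of the tests. Cells held a median of 285216 reads in Trem2ko white matter and 256597 in Trem2ko grey matter, against 89633 in WT white matter and 78206 in WT grey matter. In Trem2ko white matter A11 and A12 held 59748018 and 53278422 reads in 95 and 99 cells. There A8 to A10 held 2901355 to 3612766 reads in 31 to 34 cells. In the aged set each plate held 1 genotype, so genotype and plate cannot be told apart. Labelled sex and age differ between the genotypes as well. Trem2, the targeted gene, stood at 275 to 708 counts per 1000000 reads (CPM) in white and 346 to 606 CPM in grey matter of the Trem2ko animals A8 to A11. In WT animals it stood at 1799 to 3977 CPM in white matter, against 2131 to 5216 CPM in grey matter. The animal A12 had 2034 CPM in white matter, against 1455 CPM in grey matter, and goes against its Trem2ko label. Results below that rest on the label include A12, and only the Clec7a and Tlr7 tissue differences are also given without it. Trem2 fell in Trem2ko grey matter by edgeR's quasi-likelihood test (log2 fold change of -2.27 ± 0.35 SE, Benjamini-Hochberg adjusted p = 0.0294), and in white matter the fold change was -1.98 ± 0.43 (edgeR adjusted p = 0.664). The 10 microglia markers summed to 36522 to 43086 CPM in Trem2ko white matter, 46683 to 53473 in Trem2ko grey matter, 28750 to 39755 in WT white matter and 38676 to 48639 in WT grey matter, so the Trem2ko white matter libraries all held less of them than the grey matter ones, while the WT ranges overlap. Their part in the tissue differences was not tested. Markers of border macrophages summed to at most 68.0 CPM and those of monocytes to at most 46.7 CPM in the aged libraries, and single markers were read in 2 (Lyve1) to 53 (Pf4) and in 16 (Ccr2) to 93 (Chil3) of 847 aged cells. Of 9 neutrophil markers, Csf3r was read in 768 cells and the rest in 29 to 293.

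Set per kilobase of exon so that genes can be compared, Cd14 was far above the rest. Over the 23 aged libraries its median was 454 CPM per kilobase, and its lowest library at 319 exceeded the highest library of each other gene, including Myd88 at 147 and Tlr2 at 116. Myd88 and Tlr2 followed with medians of 49.4 and 44.0 CPM per kilobase, and their ranges overlap almost wholly. The remaining medians were 3.84 for Tlr9, 3.38 for Tlr7, 1.69 for Clec7a, 1.6 for Tlr4 and 0.732 for Tlr3, which do not differ beyond their spread over libraries.

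**Figure D1:**
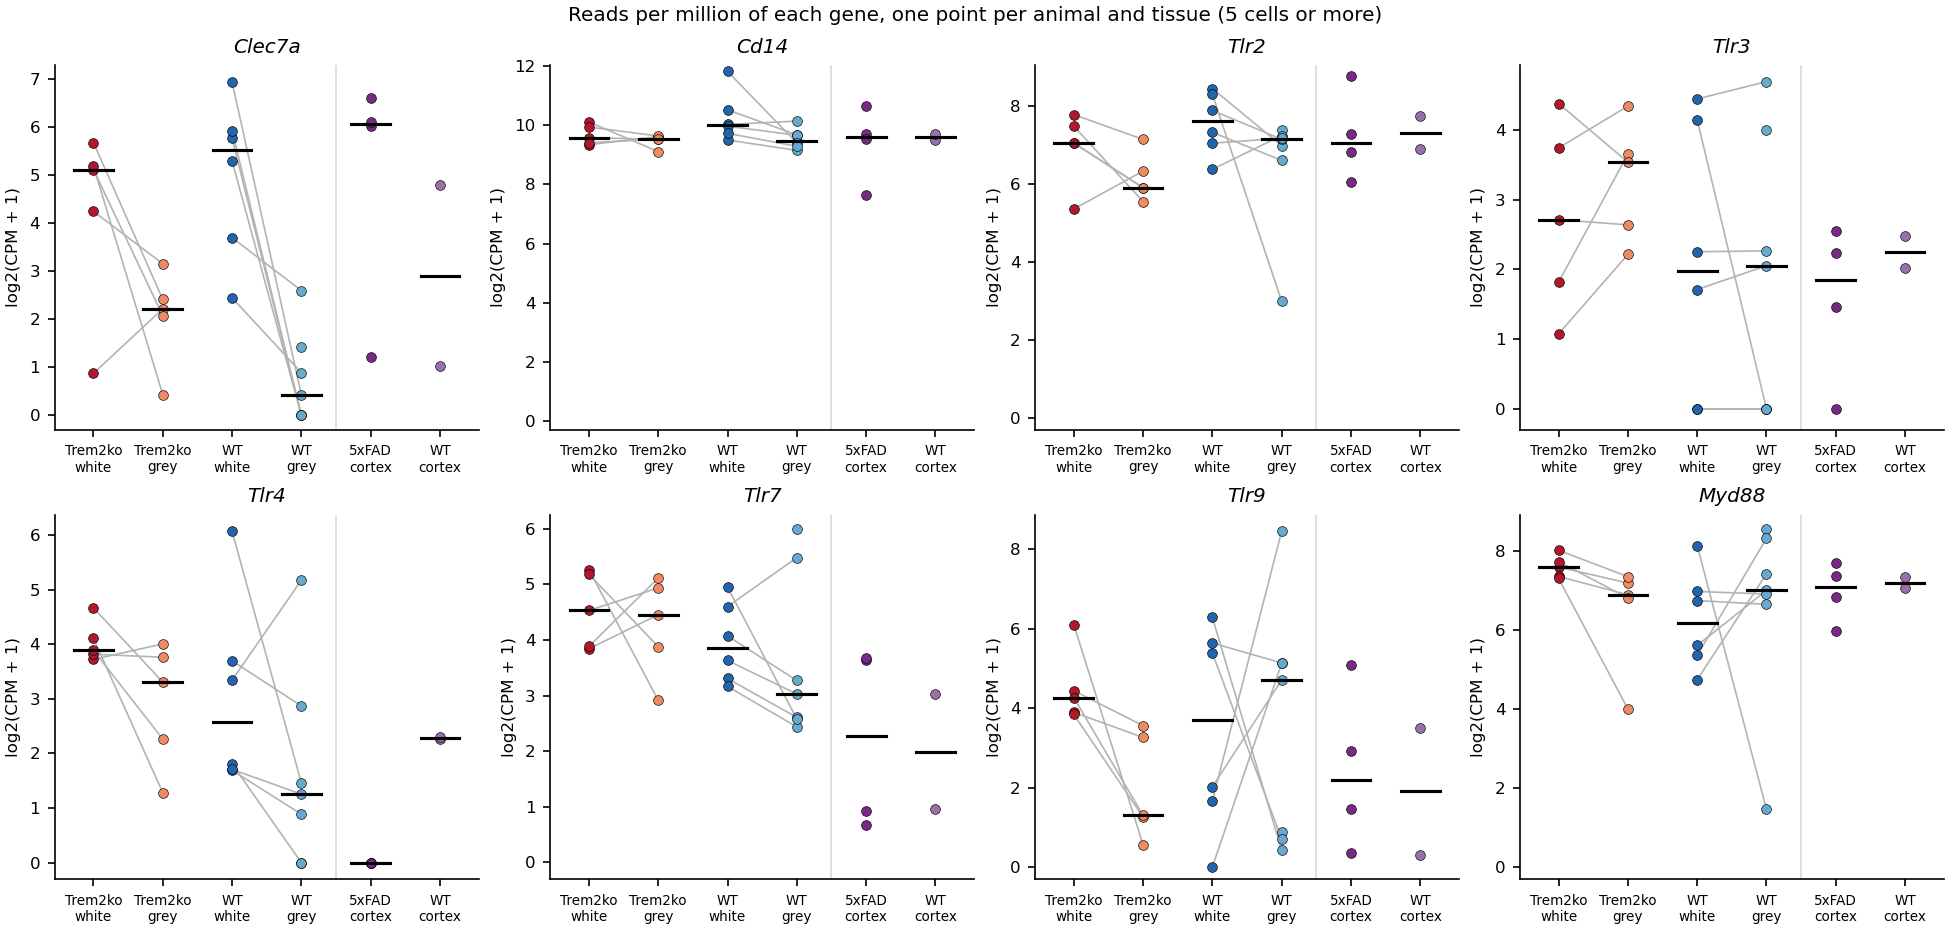
Level of each of the 8 genes in log2(CPM + 1), 1 point per animal and tissue with 5 cells or more, for Trem2ko white, Trem2ko grey, WT white and WT grey matter and for 5xFAD and WT prefrontal cortex, with black bars at the medians and grey lines between tissues of 1 animal. Clec7a separates tissues most, with WT white matter at 4.45 to 121 CPM and WT grey matter at 0 to 5.04 CPM, and the 5xFAD libraries are at 0 for Tlr4.

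After thinning each cell to 20000 reads, the median share of cells with a read was 78.3% for Cd14, 25.3% for Tlr2 and 25.0% for Myd88, but 11.1% for Tlr7, 7.1% for Tlr4, 5.7% for Clec7a and Tlr3 and 5.3% for Tlr9. A single cell held most of a library's reads in 16 of 23 libraries for Tlr9, 13 for Tlr4, 11 for Tlr7, 10 for Tlr3, 10 for Myd88, 9 for Clec7a, 7 for Tlr2 and 1 for Cd14. The 23 include libraries with no read of the gene, which cannot count here. These were 5 for Tlr3, 3 for Clec7a, 2 for Tlr4 and 1 for Tlr9.

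The first comparison was made within aged WT animals, between microglia of white and of grey matter. White matter held more Clec7a in 6 of 6 animals and more Cd14 in 5 of 6, and neither passed the threshold over all genes. None of the other genes did either. Of the 8 genes, 0 passed an adjusted p of 0.05 in edgeR, where 0.035% of 11443 genes did, all of them higher in white matter. At an unadjusted p under 0.05, 2 of the 8 (Clec7a and Cd14) were higher in white matter and 0 lower, against 5.23% of all genes in either direction. The log2 fold change was above 0 for 6 of the 8, with a median of 0.91, against 54.2% and a median of 0.11 over all genes.

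WT white matter of A2 to A7 held 4.45, 12.0, 53.3, 121, 59.7 and 38.3 CPM of Clec7a. The grey matter of A2 to A7 held 0.849, 5.04, 0, 0.346, 0 and 0 CPM, and that of the unpaired A1 held 1.67 CPM. Every animal was higher in white matter, and the groups overlap only in that A2 in white matter lay below A3 in grey matter. The mean was 48.2 ± 42.1 CPM in white matter (SD, n = 6) and 1.13 ± 1.83 CPM in grey matter (n = 7), where 12 reads stood in 6 of 147 cells. The log2 fold change was 6.66 ± 1.88 (SE), with an unadjusted p of 0.00244 and an adjusted p = 0.548 by edgeR. DESeq2, which called 3.32% of 9002 genes, called Clec7a with a log2 fold change of 6.60 and adjusted p = 1.76e-05, and none of the other 7 genes. The size of the fold rests on grey matter libraries with hardly any reads. The thinned share of cells with a Clec7a read had a median of 21.0% over animals in white matter and 0% in grey matter. Clec7a lies on chromosome 6 at 129461591 to 129472779 of GRCm38, minus strand and is annotated as a polymorphic pseudogene in GENCODE M21.

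Cd14, on chromosome 18 at 36725067 to 36726798, spanned 725 to 3627 CPM (median 1024) in WT white matter, against 568 to 1131 CPM (median 706) in WT grey matter. The ranges overlap, and A6 in white matter stood far above the others, with 1 cell giving 46.6% of its Cd14 reads. The log2 fold change was 0.79 ± 0.25 (edgeR, unadjusted p = 0.00567, adjusted p = 0.723), and without A6 it was 0.50. Tlr2, on chromosome 3 at 83836272 to 83841767, spanned 82.4 to 350.1 CPM (median 199) in white matter, against 7.0 to 168 CPM (median 141) in grey matter, with overlap. It was higher in white matter in 4 of 6 animals (log2 fold change 1.09 ± 0.65, edgeR adjusted p = 0.981). Tlr4, on chromosome 4 at 66827584 to 66930284, had 2.23, a median of 5.81 and up to 66.2 CPM in white matter, against 0, a median of 1.39 and up to 35.0 CPM in grey matter. It was higher in white matter in 5 of 6 animals (1.84 ± 1.39, edgeR adjusted p = 0.981), but the highest library of each tissue drew 92.3% and 70.5% of its Tlr4 reads from 1 cell.

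The endosomal receptors and the adaptor did not differ between WT tissues beyond the spread. Tlr3, on chromosome 8 at 45395665 to 45411080, the sensor of double-stranded RNA, spanned 0 to 20.8 CPM (median 3.02) in white matter, against 0 to 24.9 CPM (median 3.15) in grey matter. It was higher in white matter in 1 of 6 animals and lower in 3, and without A7 its log2 fold change was -0.043. Tlr7, on the X chromosome at 167304929 to 167330558, the sensor of single-stranded RNA, spanned 7.97 to 30.0 CPM (median 13.6) in white matter, against 4.41 to 62.7 CPM (median 7.17) in grey matter, and was higher in white matter in 5 of 6 animals. Tlr9, on chromosome 9 at 106222598 to 106226883, spanned 0 to 77.0 CPM (median 22.0) in white matter, against 0.346 to 349.9 CPM (median 25.2) in grey matter, where the highest value is that of A6 and comes all from 1 cell. Myd88, also on chromosome 9, at 119335934 to 119341411, spanned 25.8 to 281 CPM (median 77.1) in white matter, against 1.75 to 379 CPM (median 127) in grey matter. All of these ranges overlap, and the log2 fold changes were 0.91 ± 1.64 for Tlr3, 0.91 ± 0.94 for Tlr7, -0.87 ± 2.47 for Tlr9 and -0.55 ± 0.91 for Myd88 (edgeR, SE).

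The pathway around these receptors was described through lists. In WT tissues 0 genes of any list passed the adjusted threshold. Of 11 tested accessory proteins and other Toll-like receptors, 9 had a log2 fold change above 0 (median 0.19), with the smallest p for Ly86, the partner of the receptor Cd180, at 0.59 ± 0.17 (edgeR adjusted p = 0.601), and then for Tlr1, a partner of Tlr2, at 2.15 ± 1.05. Of 19 adaptors and kinases 10 were above 0 (median 0.05), led by Ticam1, the adaptor of Tlr3, at 4.32 ± 1.81. Transcription factors had 3 of 11 above 0 (median -0.14), with Jun at -1.58 ± 0.64. Of 9 inhibitors of the pathway 5 were above 0 (median 0.22). Lectin receptor signalling had 10 of 12 above 0 (median 0.26), with Tyrobp, the adaptor of Trem2, at 0.39 ± 0.16. Cytosolic sensors had 9 of 13 above 0 (median 1.36), with the nucleic acid sensor Zbp1 at 7.16 ± 2.80. NF-kB target genes had 5 of 9 above 0 (median 1.21), with the chemokine Ccl2 at 4.60 ± 2.20 and the cytokine Tnf at 3.94 ± 1.94.

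In the animals labelled Trem2ko, white matter again held more Clec7a on average, and Tlr9 and Myd88 were higher in white matter in 5 of 5 animals. Of the 8 genes, 0 passed in edgeR, where 0% of 11443 genes did. At an unadjusted p under 0.05 the count was 0 of 8, against 2.82% of all genes, and DESeq2 called 0 of 8, against 0.712% of 10111 genes. The log2 fold change was above 0 for 7 of the 8 (median 1.02), against 50% and a median of 0.00 over all genes.

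Trem2ko white matter of A8 to A12 held 35.3, 17.9, 0.83, 33.6 and 50.0 CPM of Clec7a, against 0.349, 7.9, 3.65, 3.21 and 4.32 CPM in their grey matter. The animal A10 alone was lower in white matter, and without it the groups do not overlap. The mean was 27.5 ± 18.8 CPM in white matter, against 3.89 ± 2.71 CPM in grey matter (SD, n = 5 each), with a log2 fold change of 2.69 ± 1.66 (edgeR, unadjusted p = 0.122, adjusted p = 1). Without A12, which goes against its label, it was 2.32, and without A10 3.54. The thinned share of cells had a median of 13.1% in white and 4.55% in grey matter.

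Tlr9 was 13.4, 18.3, 67.8, 13.9 and 20.7 CPM in Trem2ko white matter of A8 to A12, against 1.4, 1.46, 0.476, 8.61 and 10.8 CPM in their grey matter. Each white matter library exceeded each grey matter library, and the log2 fold change was 2.92 ± 1.80 (edgeR, unadjusted p = 0.122, adjusted p = 1). In A8, A9, A10 and A12 a single cell gave 70.8%, 71.7%, 63.7% and 95.0% of the white matter reads. The thinned share of cells with a Tlr9 read was higher in white matter in A9, A10 and A11, but lower in A8 (5.88% in white and 7.14% in grey matter) and A12 (1.01% in white and 2.41% in grey matter). Myd88 was 157, 258.5, 192, 163 and 212 CPM in Trem2ko white matter of A8 to A12, against 15.0, 162, 145, 118 and 111 CPM in their grey matter. Each animal was higher in white matter, and the groups overlap because A8 in white matter lay below A9 in grey matter (1.16 ± 0.86, edgeR unadjusted p = 0.194, adjusted p = 1).

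Cd14 was 983, 679, 649, 767 and 1108 CPM in Trem2ko white matter of A8 to A12, against 797, 742, 786, 736 and 552 CPM in their grey matter. The tissues overlap, with white matter higher in 3 of 5 animals (0.25 ± 0.27). Tlr2 was 132, 133, 40.1, 220 and 179 CPM in Trem2ko white matter, against 59.3, 59.1, 79.9, 141 and 46.0 CPM in grey matter, and was higher in white matter in every animal but A10 (0.87 ± 0.67). Tlr4 spanned 12.2 to 24.4 CPM in white matter, against 1.43 to 15.1 CPM in grey matter (1.34 ± 1.29). Tlr7 spanned 13.4 to 37.6 CPM in white matter, against 6.55 to 33.7 CPM in grey matter (0.32 ± 1.05, and -0.00031 without A12). Tlr3 spanned 1.11 to 19.8 CPM in white matter, against 3.65 to 19.3 CPM in grey matter (-0.64 ± 1.35, log2 fold changes by edgeR with SE). In these 3 genes the tissues overlap.

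Among the lists in Trem2ko animals 0 genes passed. Nfkb2, an NF-kB subunit, had 2.48 ± 0.95, Irf7, an interferon regulatory factor, 5.21 ± 2.09 and Atf3 3.46 ± 1.45, and 6 of 11 transcription factors were above 0 (median 0.06). A list of genes induced by dissociation summed to 430, 990, 446, 222 and 129 CPM in Trem2ko white matter of A8 to A12, against 327, 131, 276, 164 and 268 CPM in their grey matter, and its part in these values was not tested. Tnf had 5.86 ± 1.84 and Zbp1 6.09 ± 1.95 (edgeR adjusted p = 1 for each). The accessory list had 4 of 11 above 0, adaptors 14 of 19, inhibitors 8 of 9, lectin signalling 4 of 12, cytosolic sensors 8 of 13 and target genes 5 of 9.

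**Figure D2:**
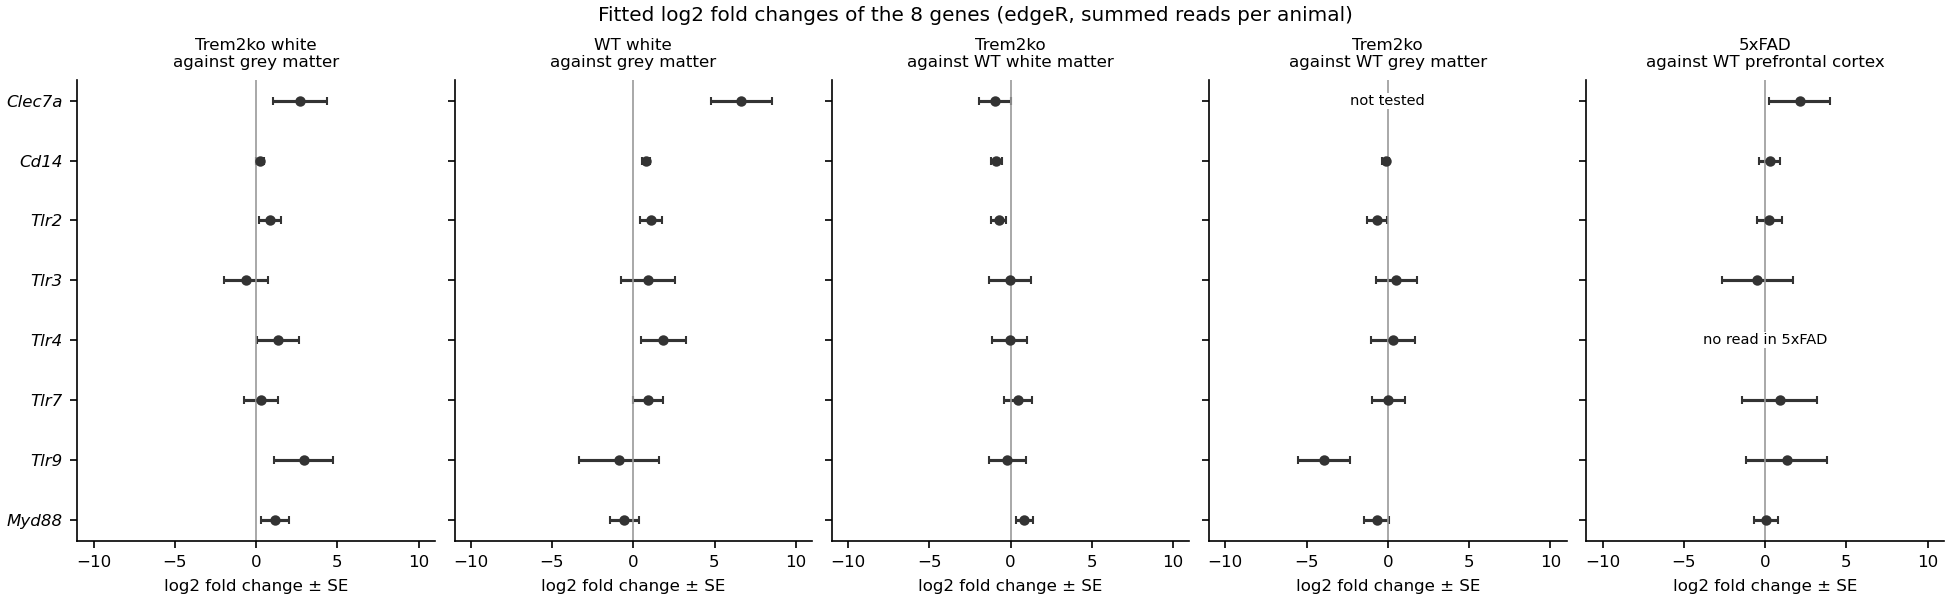
Log2 fold change with its SE for each gene (edgeR on summed reads per animal), 1 panel per comparison, with 0 as the vertical line. Clec7a in WT white against grey matter, at 6.66 ± 1.88, is the point farthest above 0.

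Whether the tissue difference itself differed between genotypes was tested as an interaction. In edgeR 0 of the 8 genes passed, where 0% of 11443 genes did, and 0 of 8 had an unadjusted p under 0.05, against 2.53% of all genes. DESeq2 called 0 of 8, against 0.328% of 9446 genes. The fitted Clec7a tissue difference of Trem2ko animals minus that of WT animals was -3.96 ± 2.43 on the log2 scale (edgeR, unadjusted p = 0.121, adjusted p = 1). Its size rests on WT grey matter, where Clec7a had 12 reads in 147 cells. The differences were -0.54 ± 0.37 for Cd14, -0.22 ± 0.93 for Tlr2, -0.49 ± 1.85 for Tlr4, -1.56 ± 2.13 for Tlr3, -0.59 ± 1.41 for Tlr7, 3.79 ± 3.08 for Tlr9 and 1.72 ± 1.25 for Myd88. The median of the 8 was -0.52, against -0.11 over all genes, and a p that misses the threshold does not show equal tissue effects. Among the lists the smallest p was that of Atf3, at 5.12 ± 1.88 (edgeR adjusted p = 1).

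Genotypes were then compared within each tissue. In white matter, Cd14 was lower in Trem2ko animals at an unadjusted p only, and 0 of the 8 genes passed in edgeR, where 0% of 8441 genes did. DESeq2 called 0 of 8, against 0.167% of 8385 genes. At an unadjusted p under 0.05, 1 of 8 was lower and 0 higher, against 3.33% of all genes. The median log2 fold change was -0.13, against 0.08 over all genes.

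Cd14 was 649 to 1108 CPM (median 767) in Trem2ko white matter, against 725 to 3627 CPM (median 1024) in WT white matter, and the ranges overlap. The log2 fold change was -0.88 ± 0.35 (edgeR, unadjusted p = 0.0222, adjusted p = 0.999), and without WT A6 it was -0.39 with an unadjusted p of 0.0878. Clec7a was 0.83 to 50.0 CPM (median 33.6) in Trem2ko and 4.45 to 121 CPM (median 45.8) in WT white matter (-0.96 ± 0.96), and the difference was smaller than the spread between animals. Tlr2 had -0.73 ± 0.46, Tlr4 -0.06 ± 1.06, Tlr3 -0.01 ± 1.29, Tlr7 0.46 ± 0.83, Tlr9 -0.20 ± 1.15 and Myd88 0.84 ± 0.52 (edgeR, SE). In the lists, Tnf had -3.61 ± 1.29, Tyrobp -0.59 ± 0.22, Prkcd, a kinase of lectin receptor signalling, -0.63 ± 0.27 and Nfkb2 -1.95 ± 0.92 (edgeR adjusted p = 0.999 for each). Log2 fold changes were above 0 for 15 of 18 adaptors and kinases, 8 of 11 transcription factors, 5 of 9 accessory proteins, 5 of 8 inhibitors, 3 of 10 genes of lectin signalling, 3 of 13 cytosolic sensors and 1 of 6 target genes, against 54.3% of all genes.

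In grey matter, Tlr9 was lower in Trem2ko than in WT animals at an unadjusted p only. Clec7a was left out for low counts, and of the 7 genes tested 0 passed in edgeR, where 0.012% of 8350 genes did, which is Trem2 alone. At an unadjusted p under 0.05, 1 of 7 was lower, against 2.6% of all genes, and DESeq2 called 0, against 0.132% of 8339 genes. Tlr9 was 0.476 to 10.8 CPM (median 1.46) in Trem2ko and 0.346 to 349.9 CPM (median 25.2) in WT grey matter, and the Trem2ko range lies within the WT range (-3.93 ± 1.58, edgeR unadjusted p = 0.0231, adjusted p = 1). Without WT A6, whose reads come from 1 cell, the change was -1.79 with an unadjusted p of 0.208. Clec7a was 0.349 to 7.9 CPM (median 3.65) in Trem2ko and 0 to 5.04 CPM (median 0.346) in WT grey matter, with overlap. The Trem2ko grey matter libraries of A11 and A12 held 43339071 and 40268381 reads, against 2865629 to 6307895 in A8 to A10. WT grey matter libraries held 571560 to 4213467 reads. The thinned share of cells with a Clec7a read had a median of 4.55% in Trem2ko and 0% in WT grey matter. The others had -0.12 ± 0.22 (Cd14), -0.66 ± 0.63 (Tlr2), 0.32 ± 1.34 (Tlr4), 0.53 ± 1.26 (Tlr3), 0.03 ± 1.02 (Tlr7) and -0.69 ± 0.75 (Myd88). In the lists, Atf3 had -3.04 ± 1.29 and Nfkb2 -2.53 ± 1.11 (edgeR adjusted p = 1).

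**Figure D3:**
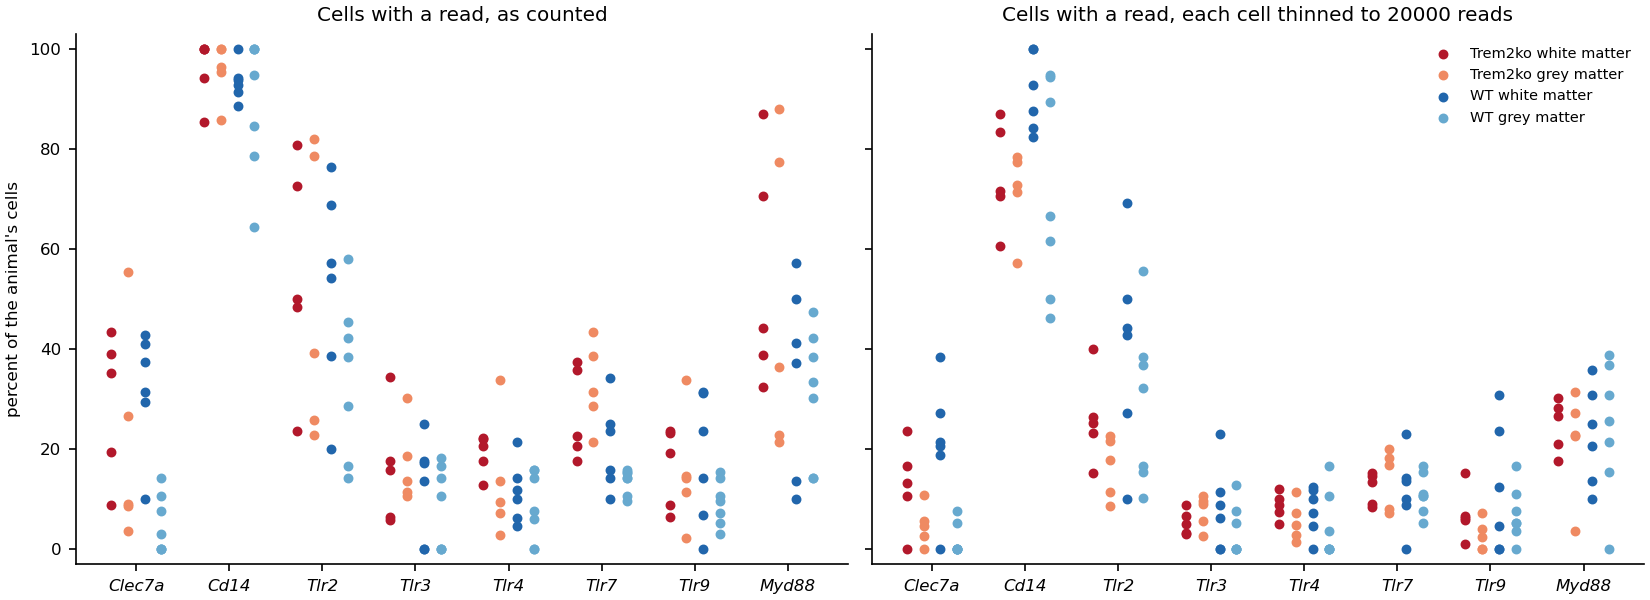
Percent of each animal's cells with at least 1 read of each gene, as counted and after thinning to 20000 reads per cell, 1 point per animal and tissue. Cd14 reads reach most cells in every group, and most medians move down under thinning, as for Clec7a in Trem2ko grey matter (9.09% as counted and 4.55% thinned) and in WT white matter (34.5% as counted and 21.0% thinned).

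In the prefrontal cortex set the design holds 4 5xFAD animals and 2 WT animals. Of the 8 genes, 0 passed in edgeR, where 0% of 9668 genes did. At an unadjusted p under 0.05, 1 of 8 (Tlr4) was lower and 0 higher, against 3.26% of all genes, and DESeq2 called 0, against 2.09% of 7359 genes. The log2 fold change was above 0 for 6 of 8 (median 0.27), against 54.2% and a median of 0.13 over all genes.

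Clec7a stood at 1.33, 64.1, 67.8 and 95.6 CPM in 5xFAD cortex of A91, A93, A99 and A100, against 26.5 CPM in A132 and 1.05 CPM in A173 of WT cortex. Of these 5xFAD animals all but A91 lay above both WT animals, and the groups overlap through A91 (2.14 ± 1.87, edgeR unadjusted p = 0.276, adjusted p = 1). The 5xFAD animal A187, left out of the test with 3 cells, held 1.38 CPM from 2 reads, below A132 as well. Without WT A132 the log2 fold change was 6.04 and without WT A173 it was 1.17, so it rests on which of the 2 WT animals is used. Thinned shares of cells had medians of 39.6% in 5xFAD and 10.7% in WT cortex. These levels were scaled apart from the aged set.

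Tlr4 had 0 reads in all 75 5xFAD cells of 5 animals, A187 included, against 57 reads in 6 of 41 WT cells (14.6%). A count of 0 in 75 cells allows a share of up to 4% of cells with a read, a limit that takes the cells of 5 animals as 1 sample and says nothing of cells that express Tlr4 without a read. After thinning, 7.14% of the cells of A132 and 3.7% of those of A173 had a read. A floor of 3 reads over the group is 0.1 CPM, against a WT level of 3.87 CPM. The WT animal A132 stood at 3.79 and A173 at 3.9 CPM. Read counts do not bound the fold, because 1 cell gave 93.8% of the reads of A132 and 53.7% of those of A173. By edgeR the unadjusted p was 0.0126 and the adjusted p = 1.

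Cd14 was 198, 1610, 737 and 828 CPM in A91, A93, A99 and A100, against 723 and 844 CPM in WT A132 and A173. Tlr2 was 434, 65.1, 156 and 112 CPM in the 5xFAD animals and 214 and 119 CPM in the WT animals, and Myd88 was 62.0, 165, 205 and 113 CPM against 161 and 132 CPM. The WT values lie within the 5xFAD range in each of these 3 genes. Tlr3 (0 to 4.87 CPM in 5xFAD, 3.08 and 4.57 in WT), Tlr7 (0.583 to 11.8 in 5xFAD, 0.947 and 7.14 in WT) and Tlr9 (0.286 to 33.2 in 5xFAD, 0.237 and 10.4 in WT) were low in both. Border macrophage markers summed to 0.286 to 267 CPM in 5xFAD and 0.71 to 138 CPM in WT libraries, and their part in these levels was not tested. The pathway lists held 0 called genes. Dusp1, a phosphatase that dampens the pathway, had 7.34 ± 3.33 and the NF-kB subunit Relb -3.09 ± 1.41 (edgeR adjusted p = 1 for both genes). Log2 fold changes were above 0 for 7 of 9 inhibitors, 9 of 11 transcription factors, 6 of 7 target genes, 8 of 12 genes of lectin signalling, 9 of 16 adaptors and kinases, 5 of 12 cytosolic sensors and 4 of 10 accessory proteins.

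The pool of postnatal day 14 gave 1 library, scaled apart, of 291 CPM for Cd14, 61.9 for Tlr2, 42.9 for Tlr4, 21.4 for Tlr3, 45.8 for Tlr7, 19.6 for Tlr9 and 84.2 for Myd88. Its cells were shallower, at a median of 42361 reads, and no test was made.

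Genes with the most similar pattern over the 23 aged libraries were named by Pearson's r of log2(CPM + 1) among genes of at least 20 CPM, as a description, since libraries share animals and tissue. Clec7a was closest to Cybb, a subunit of the phagocyte NADPH oxidase (r = 0.84), then Anxa2 (0.81) and Fxyd5 (0.79), and for Cybb r was 0.82 over white and 0.27 over grey matter libraries alone. Cd14 was closest to the receptor Gpr84 (0.72), the protease Ctsh (0.66) and Nfkb2 (0.64), for which r was 0.82, 0.73 and 0.83 over white but 0.25, 0.07 and 0.11 over grey matter libraries. Tlr2 was closest to the chemokine Cxcl16 (0.82), Anapc11 (0.78) and the glycolytic enzyme Pkm (0.77), and for Cxcl16 r was 0.61 over white and 0.86 over grey matter libraries. Myd88 was closest to the TNF receptor Tnfrsf1a (0.85), Nipbl (0.84) and Secisbp2 (0.84), and for Tnfrsf1a r was 0.70 and 0.89. Tlr4 was closest to Mrpl51 (0.75), Ccser2 (0.73) and Rbms1 (0.72), and Tlr3 to Usp19 (0.81), Ezh1 (0.80) and Hdac10 (0.78). For Tlr7 they were Mrpl39 (0.69), Klf6 (0.69) and Rbm25 (0.67), and for Tlr9 Haus8 (0.72), Rnf20 (0.68) and Parp14 (0.64). Within 1 tissue r was 0.43 to 0.90 for the genes named beside Tlr4, Tlr3, Tlr7 and Tlr9. All genes named here were picked by r from 5592 or 5593 genes over these same libraries, so r within 1 tissue is no separate support. Among the 8 genes themselves the highest r were 0.59 for Tlr2 and Myd88, 0.58 for Clec7a and Tlr2 and 0.51 for Clec7a and Cd14.

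Within WT white matter, 47 cells had a Clec7a read and 89 had none, at median depths of 85905 and 90583 reads. Tlr7 was read in 34.0% of the cells with and 15.7% of those without Clec7a, Tlr2 in 57.4% and 48.3%, and Tlr3 in 19.1% and 11.2%. Cd14 (89.4% and 93.3%), Tlr4 (8.51% and 11.2%), Tlr9 (14.9% and 20.2%) and Myd88 (27.7% and 33.7%) were read less often in the cells with Clec7a. These are shares of cells pooled over 6 animals, and no test was made. In Trem2ko white matter cells with Clec7a were much deeper than those without (medians of 523044 and 171650 reads), so their shares are not set side by side.

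Droplet data placed 7 of the genes among other brain cells. The aged table holds 21197 barcodes under 5 endings that no label ties to a sample, so neither tissue was set against the other, and it was taken as 1 sample with no test. Name groups shared 0 to 11 barcodes over 21 pairs. Barcodes were clustered and named from marker lists, as microglia-like (10213 barcodes, median 7686 unique molecular identifiers, UMIs), astrocyte-like (3413, 6470) and others. Intervals below are exact 95% Poisson intervals that cover counting error only.

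Tlr3 was higher in astrocyte-like than in microglia-like barcodes, and each of the other 6 genes was higher in microglia-like ones. Tlr3 stood at 248 counts per 1000000 UMIs (CPM, 241 to 255) in astrocyte-like and 74.7 (72.9 to 76.5) in microglia-like barcodes, and in 68.0% and 40.8% of them, against 3.91% of T cell-like barcodes of a median of 6446 UMIs. Over the 5 endings it ranged from 195 to 326 in astrocyte-like and from 49.5 to 102 in microglia-like barcodes, which do not overlap. Thinned to 1000 UMIs the shares were 21.1% and 8.08%. In a second droplet table with column groups L7 and L8 it was 166 (137 to 198) in 250 astrocyte-like and 83.1 (74.9 to 92.0) in 1136 microglia-like barcodes. No label ties L7 or L8 to a genotype, and in their microglia-like barcodes Apoe, the gene knocked out in ApoeKO mice, stood at 5.17 CPM in one and 6583 CPM in the other, with Tlr3 at 78.7 to 85.9 CPM. In astrocyte-like barcodes Tlr3 stood at 93.9 CPM in one of L7 and L8 and 204 CPM in the other, so the lower one came close to the microglia-like level. Endothelial-like barcodes had 35.2 (31.6 to 39.0).

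In the aged table the other 6 genes stood lower in astrocyte-like than in microglia-like barcodes. Cd14 stood at 285 CPM (281 to 289) in microglia-like and 4.08 (3.28 to 5.02) in astrocyte-like barcodes, and in 80.0% and 2.05% of them. Tlr2 had 117 and 1.41, Tlr7 106 and 1.23, Tlr4 36.4 and 3.22, Myd88 25.3 and 3.99 and Tlr9 4.19 and 0.091 CPM in microglia-like and astrocyte-like barcodes. Within single endings astrocyte-like levels reached 34.7 CPM for Cd14, 15.3 for Tlr2, 11.1 for Tlr4 and 12.5 for Myd88. In the second droplet table Myd88 stood at 11.3 CPM (4.89 to 22.3) in astrocyte-like and 23.7 (19.4 to 28.7) in microglia-like barcodes, with overlapping intervals. In the aged table Tlr9 was read in 3.38% of microglia-like barcodes, the lowest share of the 7 genes. Border macrophage-like barcodes (179) had 168 for Cd14, 120 for Tlr7, 78.6 for Tlr2, 59.8 for Tlr4 (46.6 to 75.6), 41.9 for Tlr3 and 29.1 for Myd88, so Tlr4 was higher there than in microglia-like barcodes beyond counting error. Neutrophil-like barcodes (80) had Myd88 at 83.6 (60.0 to 113), in 38.8% of them against 18.3% of microglia-like ones, with Cd14 at 59.2, Tlr2 at 51.0 and Tlr4 at 32.6. T cell-like barcodes had Myd88 at 14.5, in 10.0% of them, Cd14 at 37.2, Tlr2 at 20.9 and Tlr4 at 3.38. UMIs of the microglial gene Trem2 stood at 165 in neutrophil-like and 285 in T cell-like barcodes, and the part of free RNA in these levels was not tested.

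**Figure D4:**
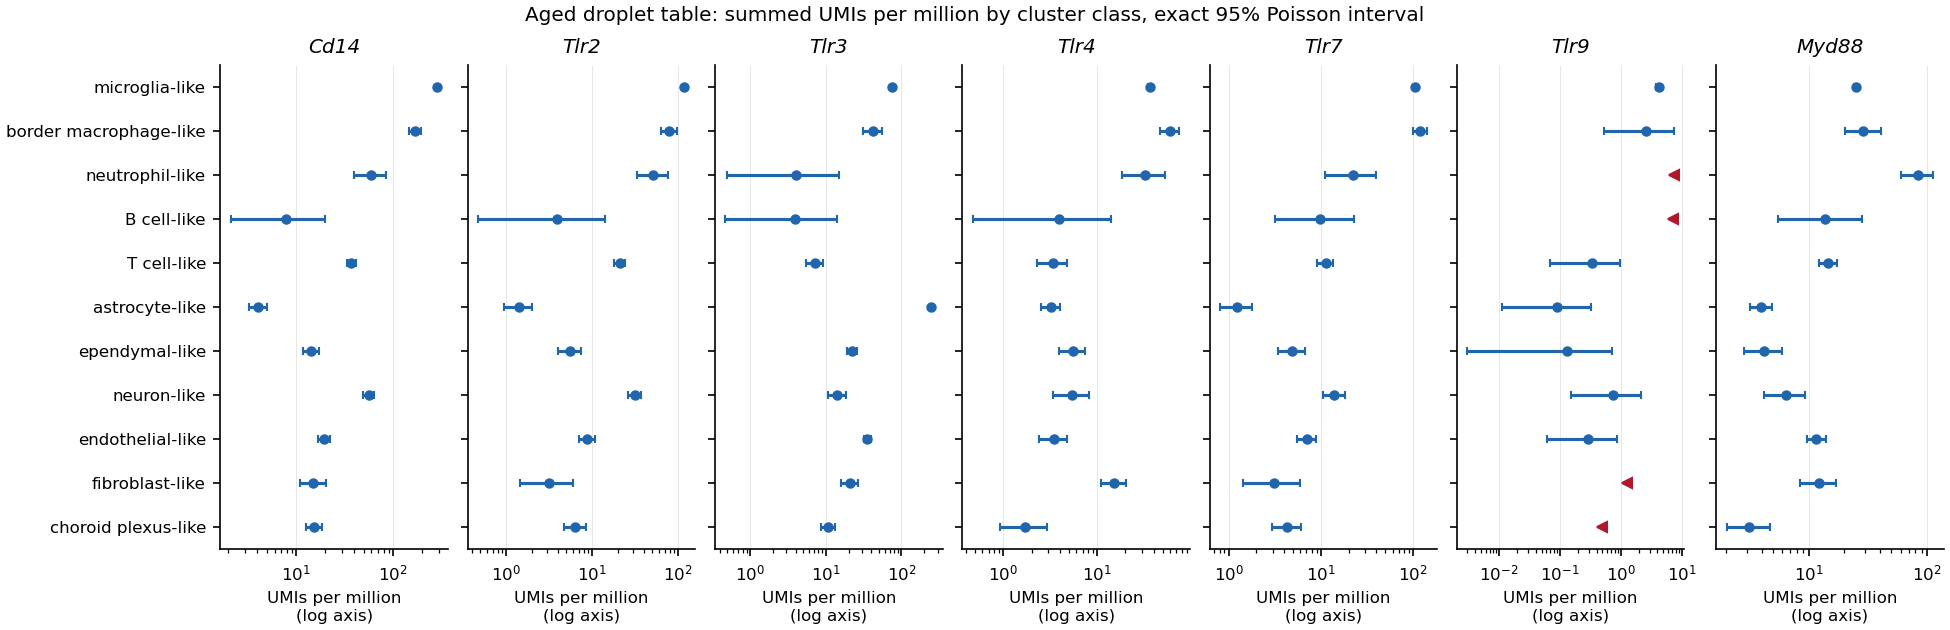
Summed UMIs of 7 genes, in CPM, by cluster class in the aged droplet table, on a log axis with exact 95% Poisson intervals, where a red triangle marks the upper limit of a class with 0 UMIs. Tlr3 is highest in astrocyte-like barcodes (248), Myd88 in neutrophil-like ones (83.6), and Cd14 in microglia-like ones (285).

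Microglia-like clusters differed among themselves, which is a description because Cd14 and Tlr2 were among the 2000 genes used to cluster. Cluster 3, led by Spp1 and Lpl (1969 barcodes, median 10605 UMIs), had Cd14 at 394 and Tlr2 at 219 CPM, but Tlr3 at 33.8, Tlr4 at 26.0, Tlr7 at 78.4 and Myd88 at 16.8. Clusters 1, 2, 4 and 5 had Cd14 at 229 to 301, Tlr2 at 64.7 to 110 and Tlr3 at 65.2 to 104, and the leading genes of cluster 5, with the highest Tlr3 of these, include the interferon-induced Rtp4, Slfn8 and Trim30a. Of the cluster 3 barcodes 947 and 971 lay in endings 1_2_1 and 1_2_2, where Tlr2 was 232 and 203 in cluster 3, against 106 and 111 in the other microglia-like barcodes of the same endings. Tlr3 in cluster 3 was 28.0 to 40.3 in these endings, against 71.5 to 89.0 in the others. Cluster 13, led by the interferon-induced Ifit2 and Mx1 (409 barcodes), had Tlr3 at 141 (129 to 154), Tlr2 at 166 and Cd14 at 227 over all endings. In the 3 endings with at least 50 of its barcodes Tlr3 spread over 91.6 to 323.5, against 47.6 to 96.3 in the other microglia-like barcodes of the same endings, and it was higher in each of the 3. In ending 1_2_1 its 91.6 lay below the 112 of cluster 5. Tlr2 was higher in 2 of the 3 endings, and in 1_2_2, which held 231 of the barcodes, it was 156 in cluster 13, against 159 in the others.

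**Figure D5:**
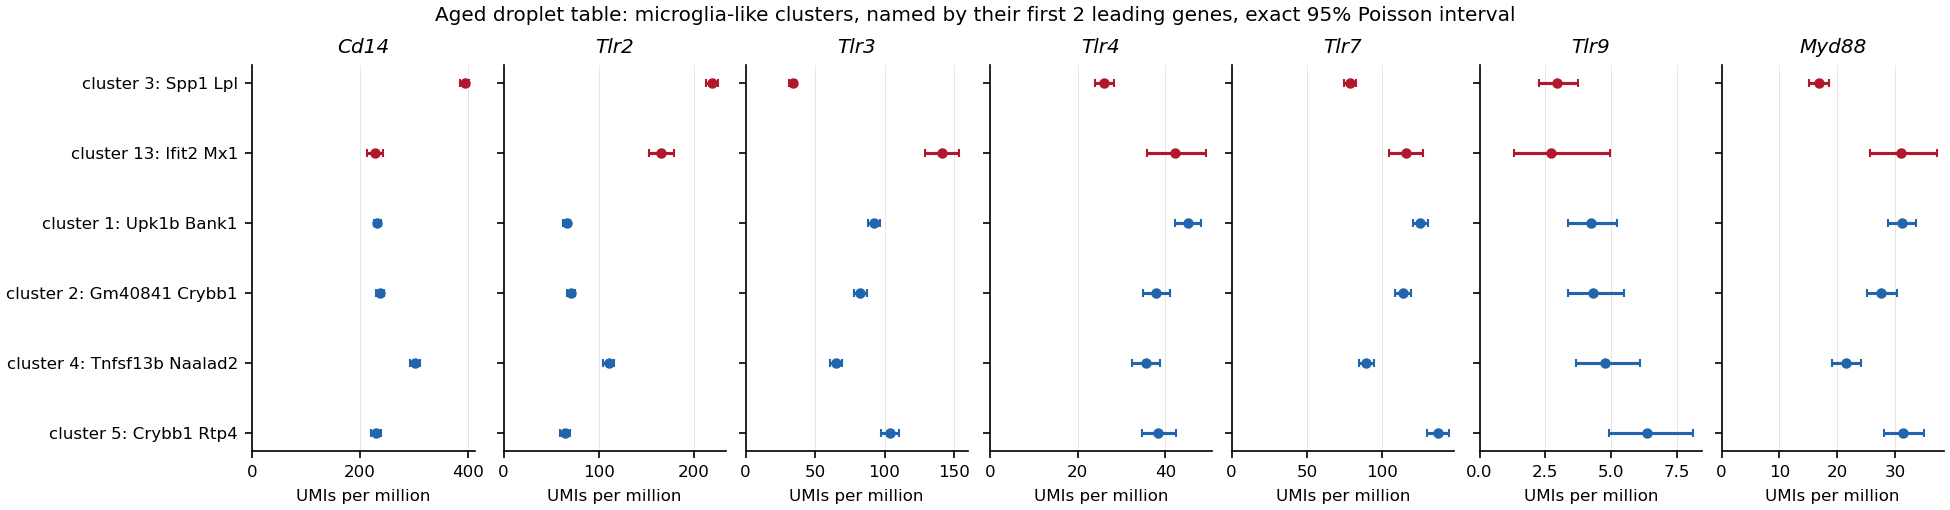
CPM of UMIs for 7 genes in the microglia-like clusters of the aged droplet table, each named by its first 2 leading genes, with exact 95% Poisson intervals and with clusters 3 and 13 in red. The cluster led by Spp1 and Lpl is highest for Cd14 (394) and Tlr2 (219) and lowest for Tlr3 (33.8), and the cluster led by Ifit2 and Mx1 has 141 for Tlr3 over all endings, where single endings differ widely.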

How the data were processed

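Smart-seq2 values are the deposited whole-number counts of reads for each cell, and droplet (10x) values the deposited counts of UMIs for each barcode. The submitters' processing notes name mm10 and the tools Cell Ranger 4, Trim Galore, FastQC and bcl2fastq. The aligner and counter of the Smart-seq2 reads are not given in the sources used here. Smart-seq2 reads carry no molecular identifiers, so intervals and floors cover counting error only.

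The genes, lists and comparisons were chosen with earlier results of these data known. The aged data came in 1 table made of 2 parts, with 358 and 489 cells. In it 54 pairs of renamed symbols were joined, and 4475 genes that had no read in one of these parts (0.1406% of reads) were left out, as were 243 genes at 0 everywhere, so 13309 were kept. The parts follow genotype in part. The 358 cells equal in number those of the Trem2ko animals A11 to A13, and the 489 cells those of all other aged animals. Reads were summed per animal and tissue with at least 5 cells. edgeR 4.0.16 quasi-likelihood tests used TMM scaling, filterByExpr and Benjamini-Hochberg adjustment over all genes tested at 0.05. Tissues were compared in 1 fit of both genotypes with the animal as a block, and the pairing comes from the animal names. Deviations from group means correlated by 0.0128 to 0.121 between the tissues of 1 animal. The SE is the log2 fold change over the square root of F, an approximation. DESeq2 1.42.0 and, for means of per-cell CPM, limma 3.58.1 were alternatives, beside scaling, filters, cells, plates, sex and each animal left out. Fits were also run on simulated data with a smaller spread between libraries than these data have. That run therefore does not show how the fits perform here.

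In the droplet data 11224 columns that match no used name group were not used. Barcodes of at least 500 UMIs were clustered (leidenalg 0.10.2, 30 components of 2000 variable genes, 15 neighbours, Leiden resolution 1). A class name needed at least 3 detected markers and a clear lead over other lists, and mixed or shallow clusters stayed unnamed. A doublet caller (Scrublet in scanpy 1.11.5) marked 135 barcodes (0.637%), which were kept, and leaving them out was an alternative. Beside the 8 genes, the text names Trem2, the 3 genes of at least 20 CPM most alike in pattern to each, and of each pathway list up to 2 genes a comparison with the smallest unadjusted p. Atf3 in Trem2ko tissues lay outside that number and was chosen after its value was seen.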

Additional observations from a re-analysis of the deposited data

Results flagged for a closer look

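In 40 groups of 4 to 10 animals the lowest or highest animal was set against its nearest neighbour, and 7 stood apart by Dixon's criterion, where chance flags about 1 in 20 groups. Cd14 stood apart in WT white matter of A6 (3627 CPM, next 1474 CPM) and in Trem2ko grey matter of A12 (551.9 CPM, next 736 CPM). Clec7a stood apart in WT grey matter of A3 (5.04 CPM, next 1.67 CPM), with 62.5% of its reads from 1 cell. Tlr4 stood apart in WT white matter of A6 (66.2 CPM, next 12.0 CPM) and in WT grey matter of A7 (35.0 CPM, next 6.31 CPM). Tlr9 stood apart in Trem2ko white matter of A10 (67.8 CPM, next 20.7 CPM), with 63.7% of its reads from 1 cell, and in WT grey matter of A6 (349.9 CPM, next 34.2 CPM), where the reads come from 1 of 7 cells. The animal A6 is in 3 of the 7, with 14 white and 7 grey matter cells.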

How the results depend on the processing

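Of 138 alternative counts of genes called, 137 were 0, and with DESeq2 in WT white against grey matter the count was 1, Clec7a. Its log2 fold change stayed above 0 in all of them, at 4.43 to 8.01, with adjusted p between 1.76e-05 and 1. Of 1062 alternative fold changes 991 kept their sign and side of the threshold and 70 turned, in 19 of 47 fold changes, and the causes were not tested. With no replicate block, thus ignoring the pairing by animal, Tlr7 turned to -0.14 in WT tissues and to 0.42 in the genotypes' difference in tissue effect. No paired analysis was possible because no animal is in both genotypes for the comparisons of Trem2ko or 5xFAD with WT. In WT tissues Myd88 was 0.35 with per-cell means, Tlr4 -0.63 with cells of at least 50000 reads, and Tlr9 0.65 with these cells and 0.86 with at least 10 cells. In Trem2ko tissues Cd14 was -0.34 on plates with both tissues and Tlr7 -0.21 with all animals and -0.11 with per-cell means. In that difference Tlr2 was 0.33 with at least 10 cells, 0.34 with 50000 reads and 0.26 on such plates, Tlr4 was 0.19 with at least 10 cells and 1.99 with 50000 reads, and Tlr7 was 0.15 on such plates. Between genotypes in white matter Tlr3 was 0.17 with no scaling, 0.12 with no filter, 0.54 with all animals, 0.66 with per-cell means and 0.63 with males. There Tlr4 was 0.026 with no scaling, 0.11 with no filter, 0.51 with per-cell means and 0.20 with males, and Tlr9 0.77 with per-cell means. In grey matter Tlr4 was -0.14 with 50000 reads, and Tlr7 -0.15 with DESeq2 size factors, -0.14 with DESeq2 and -0.0010 with at least 20 CPM. In 5xFAD against WT, Cd14 was -0.36 with per-cell means and -0.91 on plates with both genotypes, Myd88 -0.11 with no scaling, -0.21 with per-cell means and -0.24 on such plates, Tlr2 -0.41 with at least 10 cells, and Tlr9 -0.10 with per-cell means. Leaving out 1 animal at a time, the fold changes that turned ran from -0.043 to 1.44 for Tlr3 and from -2.49 to 0.86 for Tlr9 in WT tissues, from -0.23 to 0.71 for Tlr7 in Trem2ko tissues, and from -0.63 to 0.33 for Tlr2 and from -1.3 to 0.20 for Tlr4 in that difference. Between genotypes in white matter they ran from -0.57 to 0.71 for Tlr3, -0.29 to 1.35 for Tlr4 and -0.92 to 0.39 for Tlr9, and in grey matter from -0.0025 to 2.23 for Tlr4 and -0.18 to 0.67 for Tlr7. In 5xFAD against WT they ran from -0.23 to 0.62 for Cd14, -0.29 to 0.33 for Myd88, -0.41 to 0.87 for Tlr2 and -0.69 to 5.47 for Tlr9, where a lone WT animal is assumed to vary like the 5xFAD animals. Counting repeated wells once was chosen after seeing the data and turned none. Of 315 alternative droplet levels 14 moved by more than their interval or spread, and thinning lowered 39 of 40 shares of cells. Low read counts per cell limit all genes but Cd14.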
